A study of Mus musculus with 12 samples.

Results

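The liver X receptors LXR-alpha and LXR-beta, encoded by Nr1h3 and Nr1h2, were followed in mouse T cells kept with or without linoleic acid. With them went 7 genes of sterol efflux and membrane lipid handling described as their targets (Abca1, Abcg1, Mylip, Lpcat3, Apoe, Smpdl3a and Arl4c). For Smpdl3a that description is from human macrophages. The 9 genes were taken as named, and each was read from the probe set whose sole annotated symbol is that gene, using the set with the highest mean over all arrays where there were several. Of the 9, 7 had such a probe set and all 7 passed the filter on low values, within 22180 genes named and 14323 genes tested. Nr1h2 and Arl4c had no probe set under their symbols in the annotation used and were not analysed here, so Nr1h3 is the single receptor with values. The series sets the response of helper (CD4) T cells to linoleic acid, a dietary polyunsaturated fatty acid, against that of cytotoxic (CD8) T cells. Splenocytes of mice spent 24 h in medium that held 50 µM linoleic acid or none, the CD4+ and the CD8+ T cells were then isolated by sorting, and their RNA was hybridized to 12 MoGene-2_0-st arrays, 3 in each group. The groups are CD4 linoleic acid, CD4 control, CD8 linoleic acid and CD8 control, and all share the splenocyte culture that preceded the sort. Strain, age, genotype and any vehicle of the control culture are not given in the labels, nor is it said whether replicates are separate animals. The limma p-values rest on the spread between the 3 arrays within a group, pooled over all 4 groups and moderated over the tested genes. That spread may be technical only.

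LXRs are nuclear receptors that bind DNA as partners of the retinoid X receptors and are switched on by oxysterols, the oxidized derivatives of cholesterol. Active LXR raises the transporters that load cholesterol onto lipoproteins, lowers uptake through degradation of the LDL receptor, and changes the acyl chains of membrane phospholipids, in part by placing polyunsaturated chains such as linoleate into them. In T cells LXR signalling is known to restrain proliferation, and LXR-beta is regarded as the main form there, while LXR-alpha is a receptor of macrophages, liver and fat. Polyunsaturated fatty acids have been described to oppose the binding of oxysterols to LXR in cultured cells.

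The promoter of Abca1 is shown because Abca1 is the member whose level differed most between the cell types in control culture, and because it carries the element through which LXR is known to act. The window runs from 250 bases before the RefSeq transcription start to 50 after it (GRCm38.p6, chr4:53159846-53160145, minus strand, read 5′ to 3′), and capitals mark its best match to a DR4 element, a pair of AGGTCA copies spaced by 4 bases (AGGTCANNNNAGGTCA).
Abca1: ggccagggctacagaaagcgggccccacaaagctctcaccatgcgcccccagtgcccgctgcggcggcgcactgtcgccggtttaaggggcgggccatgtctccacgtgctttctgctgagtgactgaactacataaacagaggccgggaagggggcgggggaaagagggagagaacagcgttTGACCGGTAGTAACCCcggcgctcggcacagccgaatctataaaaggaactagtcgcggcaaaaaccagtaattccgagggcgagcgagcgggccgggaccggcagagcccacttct

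Read on the opposite strand, the capitals are GGGTTActacCGGTCA, with 3 mismatches at the 12 fixed positions. The limit of 3 was set after this window had been seen. Among all 32851 RefSeq promoter windows of this length, 21.9% held a match on either strand within 3 mismatches, 3.02% within 2 and 0.0152% without any. Windows were given for 7 of the 9 members (all but Abcg1 and Smpdl3a), 10 windows in all, and besides Abca1 only Arl4c held matches within 3 mismatches, 2 that overlap each other, while 0 of the 10 held one within 2 or a single exact AGGTCA on either strand, which 16.3% of all windows held. A match of letters is a description and not a binding site.

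Values are log2 RMA intensities as deposited, so a difference of 1 is a 2-fold change. Array medians ran from 4.66 to 4.80, and arrays correlated at 0.946 to 0.984 over all probe sets. CD8 linoleic acid replicate 3 stood apart, with the highest median and the lowest correlation (shared with CD4 control replicate 1). Several differences that involve it are also given without it, while shares of variation and correlations are given with all 12 arrays only. The labelled cell types held for the sorted markers. Cd8b1 was higher in CD8 T cells by 3.55 in linoleic acid culture and 3.81 in control culture, and Cd4 was lower by 5.19 and 4.88 on the log2 scale. The mean of 8 T cell markers ran from 9.06 to 9.77 over the arrays. B cell markers, which a T cell sort should remove, were read well above background. Their mean over 7 genes was 6.27 to 6.80 on the arrays numbered 1 and 7.59 to 8.24 on those numbered 2 and 3. Of 12 macrophage and monocyte markers 5 lay above the 95th percentile of chemosensory receptor genes (log2 5.11, over 1394 olfactory and vomeronasal genes, a gauge of background). They were Lyz2, Cd68, Mpeg1, Cybb and Fcgr3, while Csf1r, Adgre1, Itgam, Cd14, C1qa, C1qb and C1qc lay below it. None of the 5 dendritic cell or 5 neutrophil markers lay above it, nor any of the 2 platelet markers measured, while 2 of 4 NK cell markers did. In bulk RNA, fewer cells of a type and less RNA per cell cannot be told apart.

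Nr1h3, the oxysterol receptor LXR-alpha, was read at 4.99, 4.86 and 4.70 in CD4 linoleic acid culture and at 4.78, 4.98 and 4.84 in CD4 control culture, in the order of the replicate numbers. In CD8 T cells its values were 4.94, 4.80 and 4.40 with linoleic acid and 4.86, 5.11 and 4.44 in control culture. All 12 values lay under the background gauge (the highest, 5.11, by less than the last digit printed). The gauge thus did not tell the signal of this receptor from background, though its mean of 4.81 passed the filter of 4.28. Of the 14323 tested genes 4495 averaged under the gauge. The Nr1h3 differences of -0.01 in CD4 and -0.09 in CD8 T cells are differences between readings under it. The other 6 members lay above the gauge on all 12 arrays.

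**Figure D1:**
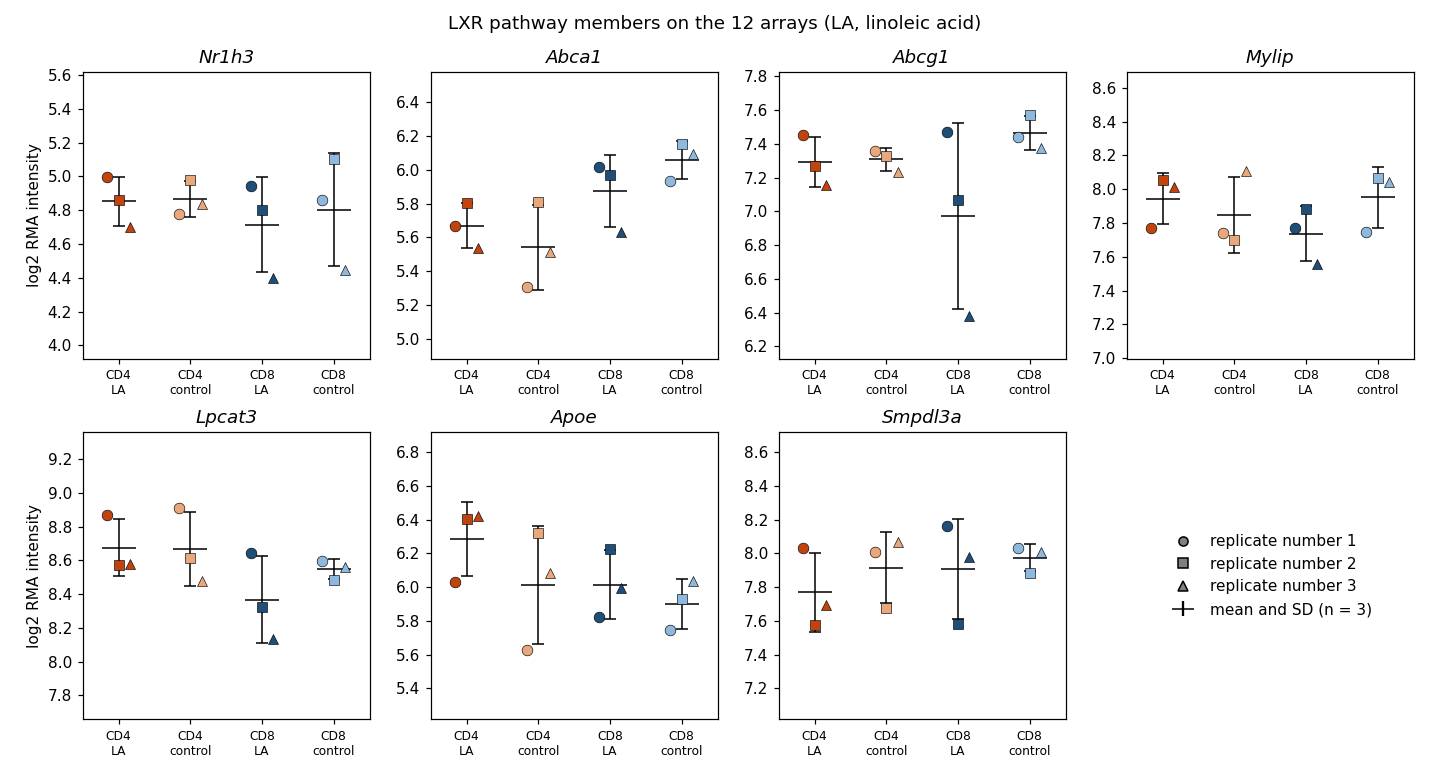
Log2 RMA intensity of the 7 measured members on each array, with linoleic acid (LA) left of control within each cell type. Point shape gives the replicate number, and black bars give the mean and SD of 3 arrays; every panel spans the same log2 range. Abca1 stands higher in CD8 control than in CD4 control arrays without overlap, and Abcg1 of CD8 linoleic acid replicate 3 lies lowest of its 12 arrays, at 6.38.

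The comparison of linoleic acid and control culture in CD4 T cells asks whether the fatty acid moved LXR target genes in the helper lineage. None of the 7 members passed a limma adjusted p under 0.05, where 0% of the 14323 tested genes passed. The member differences ran from -0.15 for Smpdl3a to 0.27 for Apoe, and the median of the 7 was 0.01, where that of all genes was -0.00467. At an unadjusted p under 0.05 0 members passed, against 2.6% of all genes, and the arrays of the 2 cultures overlapped for each of the 7, where they did not for 7.44% of genes. With the replicate number as a block 1 of 7 had such a p, Apoe, against 5.61% of all genes. The 95% confidence intervals without a block lay between -0.51 and 0.66, short of a 2-fold change in either direction for the 6 members read above background.

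Of the transporters, Abca1, which passes cholesterol and phospholipid to lipid-poor apolipoprotein A-I, read 5.67, 5.80 and 5.54 in CD4 linoleic acid culture, against 5.31, 5.81 and 5.51 in CD4 control culture. The treated values lie inside the range of the control values, and the difference was 0.13 ± 0.15 (SE, n = 3 per group, limma adjusted p = 0.9998). Abcg1, which moves cholesterol to high-density lipoprotein, read 7.45, 7.27 and 7.16 against 7.36, 7.33 and 7.23 in the same groups, with a difference of -0.02 ± 0.21. Neither transporter separated the cultures.

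Apoe, the apolipoprotein that carries effluxed cholesterol, showed the largest difference of the 7 in CD4 T cells. It read 6.03, 6.40 and 6.42 with linoleic acid and 5.63, 6.32 and 6.09 in control culture, and each same-numbered pair lay higher with linoleic acid, as it did for 13.5% of all tested genes. The difference of 0.27 ± 0.18 was not past the threshold (limma adjusted p = 0.9998, and 0.855 with the replicate number as a block), and an exact two-sided permutation test of the 6 arrays gave p = 0.3, where 3 against 3 cannot go below 0.1. Beside it, the mean of 7 B cell markers was 6.80, 8.24 and 8.21 in the treated and 6.68, 8.12 and 7.98 in the control arrays, also higher in each same-numbered pair. Their part in the Apoe values was not tested.

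The remaining members in CD4 T cells differed by 0.10 for Mylip, 0.01 for Lpcat3 and -0.15 for Smpdl3a, each within overlapping arrays. Mylip, the ubiquitin ligase IDOL that marks the LDL receptor for degradation, averaged 7.95 ± 0.15 (SD, n = 3) with linoleic acid and 7.85 ± 0.22 in control culture. Lpcat3, the acyltransferase that puts polyunsaturated chains into phospholipids, averaged 8.68 ± 0.17 and 8.67 ± 0.22 in these groups. Smpdl3a, a secreted phosphodiesterase that LXR induces in human macrophages, averaged 7.77 ± 0.24 and 7.92 ± 0.21.

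**Figure D2:**
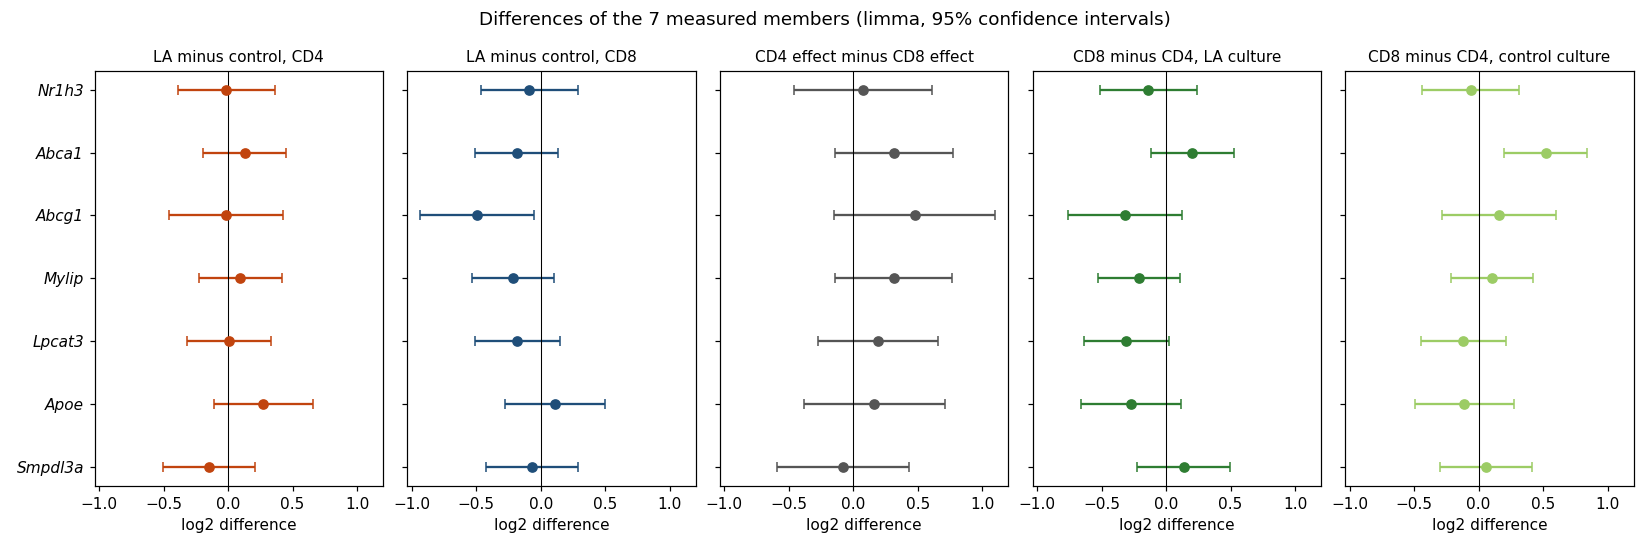
Log2 difference of each of the 7 measured members in 5 contrasts, with 95% confidence intervals from limma on all 12 arrays (horizontal axis, log2; LA, linoleic acid). The intervals exclude 0 for Abcg1 in the CD8 response and for Abca1 between CD8 and CD4 T cells in control culture. Both have adjusted p above 0.05 in this fit without a block.

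The same comparison in CD8 T cells covers the cytotoxic lineage. Again 0 of 7 members passed, where 0% of all tested genes did, with limma adjusted p of 0.757 to 0.921. Of the 7, 6 lay below control and Apoe above it, with a median of -0.18, beside a median of -0.06 over all genes, of which 63.1% lay below control. At an unadjusted p under 0.05 there was 1 member, Abcg1, against 5.08% of all genes, and with the replicate number as a block again 1, Abcg1, against 13.5%. The 7 intervals ran within -0.93 to 0.50.

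Abcg1 in CD8 T cells read 7.47, 7.07 and 6.38 with linoleic acid, against 7.44, 7.57 and 7.38 in control culture. The treated array numbered 1 lies within the control values and those numbered 2 and 3 lie below them, with pair differences of 0.03, -0.51 and -0.998. The group means gave -0.49 ± 0.21 (SE, n = 3 per group), 1.41-fold lower, with an unadjusted limma p = 0.0317, an adjusted p = 0.757 and an exact permutation p = 0.3. The block gave an unadjusted p = 0.00737 and a limma adjusted p = 0.297. Over 16 alternatives the difference ran from -0.75, without the arrays numbered 1 (adjusted p = 0.360), to -0.20 ± 0.14, without CD8 linoleic acid replicate 3 (0.9997). Of the 16, 12 had an unadjusted p under 0.05, and the lowest adjusted p was 0.0680, with array weights. The chemosensory receptor genes averaged 3.46 on CD8 linoleic acid replicate 3, above the 2.99 to 3.41 of all others, and the macrophage and monocyte markers averaged 5.64, also the top value. Their part in the Abcg1 value was not tested.

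Abca1 likewise lay lowest on that array among the CD8 arrays, at 6.02, 5.97 and 5.63 in CD8 linoleic acid culture and 5.94, 6.15 and 6.10 in CD8 control culture. Its difference of -0.19 ± 0.15 became -0.07 ± 0.15 without replicate 3 of the treated group. Mylip differed by -0.22 and Lpcat3 by -0.18, and these became -0.13 and -0.06 without that array. In both genes the treated array numbered 3 was the lowest of all 12, at 7.56 for Mylip and 8.14 for Lpcat3. Nr1h3 turned from -0.09 to 0.07, while Apoe stood at 0.11 with that array and 0.12 without it, and Smpdl3a at -0.07 and -0.10. Without the array 5 of the 7 lay below control and their median was -0.07, against -0.03 over all genes.

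**Figure D3:**
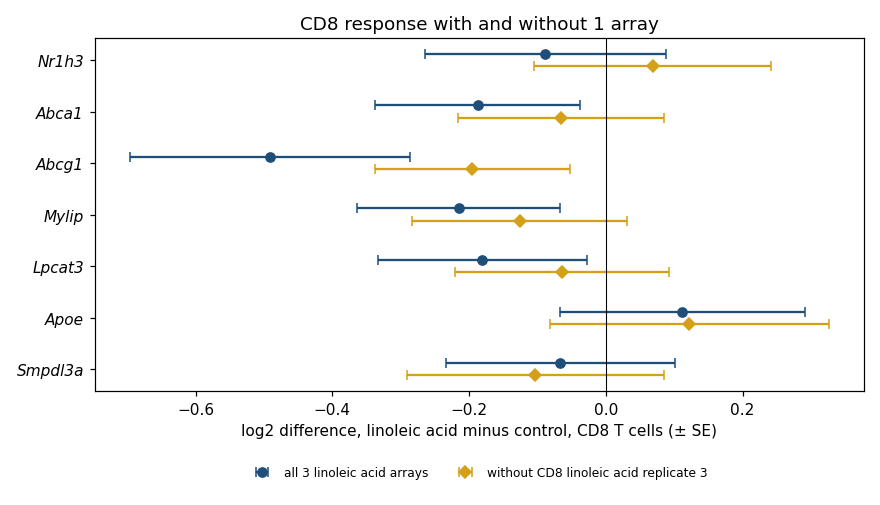
Log2 difference between linoleic acid and control culture in CD8 T cells (± SE) for the 7 measured members, from all arrays (circles) and without CD8 linoleic acid replicate 3 (diamonds). Abcg1 stands at -0.49 with that array and at -0.20 without it.

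Averaged over both cell types, linoleic acid left 0 of 7 members past the threshold, where 0% of tested genes passed, and none had an unadjusted p under 0.05, against 4.84% of genes. With the replicate number as a block 2 of 7 had such a p, Abcg1 and Apoe, against 9.75% of genes. The differences ran from -0.25 ± 0.15 for Abcg1 to 0.19 ± 0.13 for Apoe. An exact two-sided permutation over the 400 relabellings of cultures within cell types gave p = 0.19 for each of the 2 genes. The remaining 5 members lay between -0.11 and -0.03, so that 6 of 7 were below control with a median of -0.06. Without CD8 linoleic acid replicate 3 the Abcg1 value was -0.11, Abca1 and Nr1h3 each stood at 0.03, and 4 of 7 were below control with a median of -0.02. CD4 and CD8 arrays of one number may come from one culture, so the cell types are not independent here.

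Whether the CD4 and the CD8 response differ is the question of the series, and for the members 0 of 7 differences between the responses passed, where 0% of tested genes did, and 0 of 7 had an unadjusted p under 0.05, against 2.35% of genes. The block left both counts at 0, where 8.3% of genes had an unadjusted p under 0.05. Abcg1 had the largest, 0.47 ± 0.29 (CD4 minus CD8, limma adjusted p = 0.953, 95% interval -0.15 to 1.10). For Abca1 the difference was 0.32 ± 0.21 and for Mylip 0.31 ± 0.21. Without CD8 linoleic acid replicate 3 the values were 0.18 ± 0.19 for Abcg1, 0.19 ± 0.20 for Abca1 and 0.22 ± 0.21 for Mylip. Of the 7, 6 were above zero and their median was 0.19, beside 0.04 over all genes, of which 42.9% lay below zero; without that array 5 were above zero and these medians were 0.15 and 0.02. The Abcg1 interval reaches past a 2-fold difference without a block and runs from -0.0043 to 0.95 with it. The intervals of the other 5 members read above background stop short of 2-fold either way.

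Between the sorted cell types, CD8 against CD4 T cells was compared first in control culture. None of the 7 members passed a limma adjusted p under 0.05, where 1.95% of tested genes did. At an unadjusted p under 0.05 there was 1 of 7, Abca1, against 9.37% of genes. Abca1 and Abcg1 were the members whose arrays did not overlap between the cell types, both higher in CD8 T cells. In that direction alone 8.52% of all tested genes did not overlap. The direction was taken from these members, and the share in either direction is larger.

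Abca1 read 5.94, 6.15 and 6.10 in CD8 control culture, against 5.31, 5.81 and 5.51 in CD4 control culture. Every CD8 value lies above every CD4 value. The difference was 0.52 ± 0.15 (SE, n = 3 per group), 1.43-fold, with a 95% interval of 0.20 to 0.84. It had an unadjusted limma p = 0.00396 and an adjusted p = 0.129, and the exact permutation p was 0.1, the smallest that 3 against 3 can give. With the replicate number as a block the limma adjusted p was 0.0283, in a fit that called 630 of all tested genes, against 280 without the block. The numbers were not taken to pair these arrays. Same-numbered arrays differed by 0.63, 0.34 and 0.59, each higher in CD8 T cells, as they were for 19.2% of all tested genes. Beside it, 8 of 9 tested macrophage and monocyte markers had lower values in CD8 control culture (median -0.17), 4 of the 9 averaging under the background gauge, and the mean of all 12 ran from 4.81 to 5.33 in CD8 and from 5.002 to 5.48 in CD4 control arrays. All 7 B cell markers were below their CD4 values too (median -0.32). Their part in the Abca1 value was not tested.

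Abcg1 in control culture read 7.44, 7.57 and 7.38 in CD8 and 7.36, 7.33 and 7.23 in CD4 T cells, so that its groups are set apart by a narrow gap. The difference was 0.16 ± 0.21, 1.11-fold, with a limma adjusted p of 0.927. The fit takes 1 spread from all 4 groups, and the CD8 linoleic acid arrays of this gene had an SD of 0.55, against 0.067 to 0.15 in the other groups. Mylip, Smpdl3a, Nr1h3, Apoe and Lpcat3 differed by 0.10, 0.06, -0.06, -0.11 and -0.12, each within overlapping arrays.

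In linoleic acid culture CD8 against CD4 T cells gave 0 of 7 members past the threshold, where 2.03% of tested genes passed, and 0 of 7 at an unadjusted p under 0.05, against 11.8% of genes. With the replicate number as a block 5.57% of genes passed, and still 0 members. At an unadjusted p under 0.05 the block gave 2 of 7, Lpcat3 and Apoe, against 19.1% of genes. Abca1 read 6.02, 5.97 and 5.63 in CD8 and 5.67, 5.80 and 5.54 in CD4 T cells, with a difference of 0.20 ± 0.15. Without CD8 linoleic acid replicate 3 it was 0.33 ± 0.15 (unadjusted p = 0.04999, limma adjusted p = 0.491). Its arrays overlapped, as did those of the other 6 members, where 15.3% of genes had arrays that did not. Each same-numbered pair was again higher in CD8 T cells, by 0.35, 0.17 and 0.09, as were 17% of tested genes. Lpcat3 read 8.65, 8.32 and 8.14 in CD8 against 8.87, 8.58 and 8.58 in CD4 T cells, lower in each pair, with a difference of -0.31 ± 0.15 (limma adjusted p = 0.461, -0.19 without CD8 linoleic acid replicate 3), and 24.9% of all tested genes were lower in each pair. Apoe at -0.27 ± 0.18 was also lower in each pair, beside 7 of 7 B cell markers below their CD4 values (median -0.49). Abcg1 at -0.32 ± 0.21 became -0.02 without CD8 linoleic acid replicate 3.

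In all 7 measured members more of the variation went with the replicate number than with the culture. The medians over all tested genes were ordered the same way, 24.8% by number and 4.8% by culture. The number has more levels than the culture, which favours it in such shares. The number accounted for 65.6% of the sum of squares of Smpdl3a over the 12 arrays, 56.3% for Nr1h3, 53.6% for Apoe and 47% for Lpcat3, where the median over tested genes was 24.8%. For Abcg1 the number took 30.5% and for Mylip 21.6%. In Abca1 cell type took the most, 52.6%, a share higher than that of 93.1% of tested genes, against 17.7% by number and 0.357% by culture. Culture took most for Abcg1, 18.2%, and Apoe, 15.6%. These shares are descriptions with no test.

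**Figure D4:**
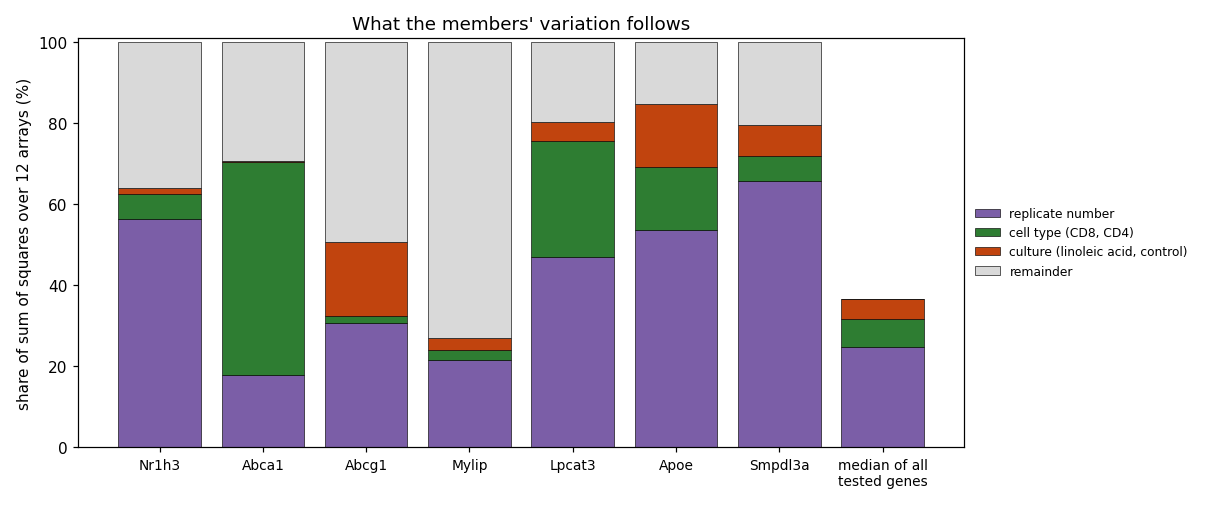
Share of each member's sum of squares over the 12 arrays taken by replicate number, cell type and culture (stacked bars, percent), with the medians of the 3 shares over all tested genes at the right. Cell type takes 52.6% for Abca1, and replicate number 65.6% for Smpdl3a.

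Apoe was low on the arrays numbered 1, at 5.63 to 6.03, against 5.93 to 6.42 on those numbered 2 and 3. Smpdl3a averaged 8.06 over the arrays numbered 1, 7.68 over those numbered 2 and 7.94 over those numbered 3, and Lpcat3 averaged 8.76, 8.50 and 8.44. With each cell type's mean subtracted, Apoe correlated with the mean of the B cell markers at 0.82 and Lpcat3 with the mean of the macrophage and monocyte markers at -0.90 over the 12 arrays. Lists with means under the background gauge gave similar values: with the mean of the chemosensory receptor genes the correlations were 0.81 for Apoe and -0.85 for Lpcat3, and with the dendritic cell markers 0.73 and -0.795. Abca1 stood at 0.20 with the B cell, 0.00 with the macrophage and monocyte and -0.06 with the receptor gene mean. These points share arrays and replicate numbers, and the values describe them without a test. Among the members themselves, Apoe and Smpdl3a ran most oppositely (-0.78), and Abcg1 ran most alike with Lpcat3 (0.78).

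**Figure D5:**
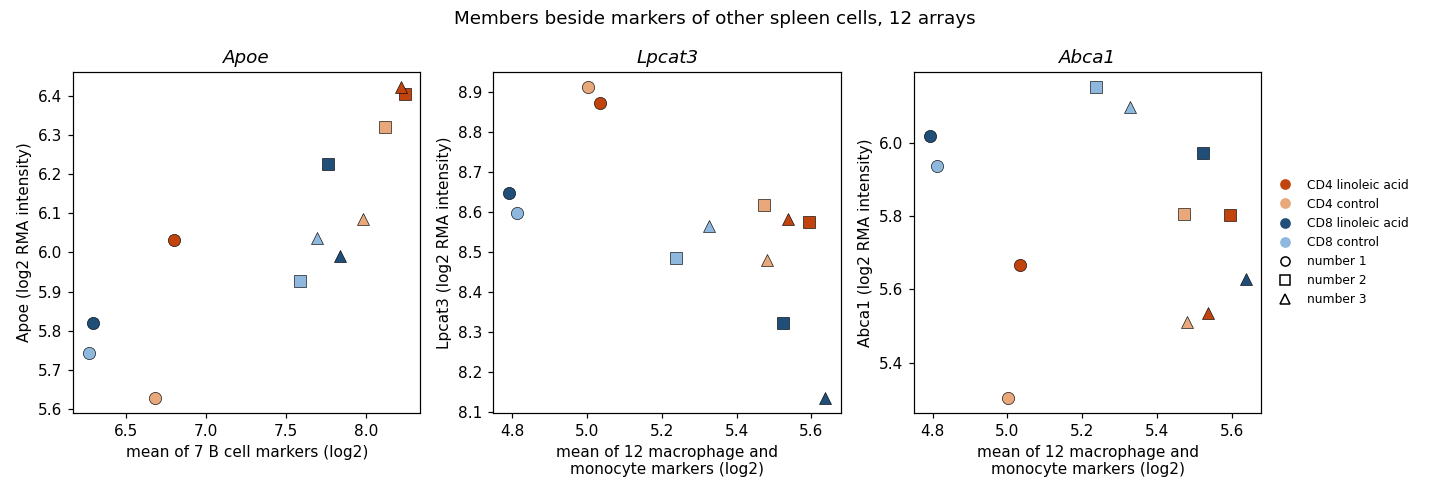
Log2 intensity of Apoe, Lpcat3 and Abca1 (vertical axes) against the mean log2 intensity of B cell or of macrophage and monocyte markers (horizontal axes) on the 12 arrays. Colour gives the group and shape the replicate number. Apoe is higher and Lpcat3 lower where the markers are higher. Abca1 shows the 2 cell types apart in control culture, while they overlap in linoleic acid culture.

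The tested genes whose pattern was most like that of a member were found by Pearson correlation over the 12 arrays after each cell type's mean was subtracted. These are the highest of many correlations over arrays that share replicate numbers, given as a description without a test. For Abca1 they were H60b, Kctd12 and Cc2d1b at 0.94, 0.92 and 0.90, where the 95th percentile over genes was 0.60. H60b averaged 4.62, under the background gauge. For Abcg1 they were Atxn7l3b, Trim28 and Akt1 at 0.98, 0.98 and 0.97, where that percentile was 0.88. For Mylip they were Mcm4, Qtrt2 and Ddx21 at 0.94, 0.93 and 0.93, where it was 0.62.

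Other genes of the pathway were read as lists. Of the retinoid X receptors and cofactors, 6 of 8 genes were measured and 5 tested, and 0 passed for linoleic acid in either cell type, with medians of 0.11 in CD4 and -0.21 in CD8 T cells (-0.07 without CD8 linoleic acid replicate 3). Between the cell types, the coactivator Ncoa3 differed in linoleic acid culture (CD8 minus CD4) by -0.59 ± 0.14, with a limma adjusted p = 0.0513 without a block and 0.0076 with the replicate number as a block. Of 14 other LXR targets 8 were tested, among them the lipogenic genes Srebf1, Scd1 and Fasn and the phospholipid transfer protein Pltp, and 0 passed in any of the 6 contrasts without a block. In linoleic acid against control their medians were 0.06 in CD4 and -0.09 in CD8 T cells, and Fasn, the fatty acid synthase, stood at 0.16 and -0.34. The CD8 values were -0.03 for the median and -0.03 for Fasn without CD8 linoleic acid replicate 3. Pltp had the smallest p of this list in CD8 against CD4 T cells of control culture. It read 5.83, 5.60 and 5.54 in CD8 control and 4.72, 5.29 and 5.15 in CD4 control culture. The difference was 0.61 ± 0.19 without overlap (limma adjusted p = 0.170). In that direction alone 8.52% of all tested genes did not overlap. The CD4 control value of 4.72 lay under the background gauge. Scd1, the stearoyl-CoA desaturase, was chosen here after its values were seen. In linoleic acid culture it differed (CD8 minus CD4) by -0.63 ± 0.63. The limma adjusted p was 0.758 without a block and 0.00338 with the replicate number as one. Scd1 read at most 5.34 on the arrays numbered 1 and at least 6.21 on those numbered 2 and 3. In the same comparison all 7 B cell markers lay below their CD4 values (median -0.49). With the replicate number as a block 5 of these markers passed, each lower in CD8 T cells. Their part in the Scd1 value was not tested.

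Genes that make or remove oxysterols were not told from background. All 6 measured genes of this list, among them the hydroxylases Cyp27a1 and Ch25h and the sulfotransferase Sult2b1, averaged under the background gauge, 3 of 7 were tested and 0 passed in any contrast. Of 15 genes of sterol uptake, storage and trafficking 11 were tested. With linoleic acid 0 passed in either cell type, 9 lay above control in CD4 (median 0.03) and 11 below it in CD8 T cells (median -0.17, where 63.1% of all genes lay below). Without CD8 linoleic acid replicate 3, 8 of these 11 values were below control (median -0.02), where 59.3% of all genes lay below. Nceh1, which frees cholesterol from its esters, was the CD8 member with the smallest p, at -0.29 ± 0.11 (unadjusted p = 0.0231, limma adjusted p = 0.757), and -0.28 without that array. Lipa, the lysosomal acid lipase, was the 1 gene of the 4 lists that passed in a comparison without a block. It read 9.47, 9.20 and 8.98 in CD8 and 10.15, 9.85 and 9.78 in CD4 T cells of linoleic acid culture, 1.64-fold lower (-0.71 ± 0.17, limma adjusted p = 0.0407). With the replicate number as a block its adjusted p was 0.000714. Over 16 alternatives the difference ran from -0.84 to -0.60, each had an unadjusted p under 0.05, and 9 passed after adjustment. Lipa missed the threshold without CD4 linoleic acid replicate 1 (0.182), 2 (0.118) or 3 (0.0645), or CD8 linoleic acid replicate 2 (0.128) or 3 (0.149). In control culture it stood at -0.41 ± 0.17 (adjusted p = 0.396).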

How the data were processed

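RNA of 12 samples was read on single-colour Affymetrix arrays. The deposited values are log2 intensities made by the authors with RMA (background correction, quantile normalization, probe set summary), per the submitters' processing notes; its software, summary level and build: not given in the sources used here. Of 41345 probe sets 23521 carried a single symbol in the platform annotation. Genes with a mean under the 40th percentile of probe set means (log2 4.28) were left out, leaving 14323. Contrasts of the 4 group means were fitted in limma 3.58.1 (R 4.3.3) over all 12 arrays (8 residual degrees of freedom, 5.67 prior), two-sided, with Benjamini-Hochberg adjustment over the tested genes at 0.05. The number of arrays limits the precision. The fitting code was tested on simulated data.

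Named were the 9 members, up to 3 genes with the smallest p of each pathway list, and for 5 members (2 of them without values) the 3 genes most like them. Members and lists were chosen with earlier results of these data known. Scan dates and slides were not used here. Alternatives were the replicate number as a block, other filters, centring, quantile normalization, probe set means, a trended robust variance, array weights, the compared groups alone, each array left out and, chosen after seeing the data, the arrays numbered 1 left out. Deviations of same-numbered arrays correlated at 0.61, 0.19 and 0.32 between CD4 cultures, at 0.43, 0.19 and 0.42 between CD8 cultures and at 0.58, 0.26 and 0.52 between cell types in linoleic acid culture, which meets the rule for pairing by number, though the labels state none. Values are from the fit without the block unless the block is named. Promoter windows came from RefSeq (GRCm38.p6).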

Additional observations from a re-analysis of the deposited data

How the results depend on the processing

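Over the 6 contrasts the count of members past the threshold was 0 throughout, and it stayed 0 in 104 of 106 alternative counts. The exceptions concern CD8 against CD4 T cells in control culture, where 1 member, Abca1, passed with the replicate block (0.52, limma adjusted p = 0.0283) and 1, again Abca1, with array weights (0.53, adjusted p = 0.0485), where its 16 alternatives gave 0.0283 to 0.396. Same-numbered arrays of that comparison correlated at 0.54, -0.01 and 0.42 in their deviations, and the numbers were not taken to pair them. Of its 6 arrays 4 correlated best with their own number, as many as between the CD4 cultures, where the rule for pairing was met. The labels do not settle whether the block applies in control culture. If the numbers mark shared cultures in the other comparisons, they would link the CD4 and CD8 control arrays too. The block raised the calls over all genes there to 630, against 280 without it. It changed no other member's call, and of the list genes named it changed Ncoa3 and Scd1 (above) and, in control culture, Pltp (adjusted p = 0.0478), Nceh1 (0.0467) and Lipa (0.0473). Over all genes the block gave 798 calls for CD8 against CD4 T cells in linoleic acid culture, against 291, and 26 for linoleic acid averaged over the cell types, against 0. Leaving out single arrays kept all member counts at 0. Of 736 alternative values of the 42 member differences 36 turned sign, none of them past the threshold. Over all genes, array weights, whose estimation stopped before its tolerance was met, called 213 genes for linoleic acid in CD8 T cells, against 0 in the unweighted fit. With arrays centred on their medians 45.7% of genes lay below control there, against 63.1%, and the members' median was -0.10, against -0.18. Lipa in linoleic acid culture, past the threshold in 9 of 16 alternatives, kept its difference of -0.71 but missed the threshold with no filter (0.0645) and in a fit of the compared groups alone (0.116). The second probe set of Smpdl3a gave -0.08 in CD4 and -0.20 in CD8 T cells for linoleic acid, neither past the threshold. Nr1h3 could not be fitted under the stricter filter, since it lay below it. Signal near background limits Nr1h3 and the oxysterol genes, and 3 arrays a group limit the rest.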
